A study of Mus musculus with 6 samples.

Results

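Open chromatin around Pax5 and on its upstream side, over the neighbouring gene Zcchc7, was examined in ATAC-seq peak lists of mouse pro-B cell lines. ATAC-seq marks open chromatin by where a transposase can cut the DNA. Members were all peaks overlapping mm9 chr4:44480000-44970000, merged into 1 region wherever peaks of any list overlapped by 1 bp. This gave 67 regions of 149724 in the whole series, from 44 and 50 peaks in CBE_1, 44 and 43 in CBE_2, and 50 and 51 in WT. CBE_1 and CBE_2 are lines of genotype IGCR1-/-, in which a control region of the immunoglobulin heavy chain locus on another chromosome is mutated, and WT carries it intact. The labels name the mutated alleles CBE-/-(1) and CBE-/-(2). All 3 lines are deficient in RAG2, without which antigen receptor genes are not rearranged, come from bone marrow of strain 129SV and were untreated. Each line has 2 libraries of 200000 cells, nothing in the labels says that these came from separate cultures, and genotype and line cannot be told apart because WT is 1 line.

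Pax5 encodes a paired-domain transcription factor that switches on B lineage genes, represses genes of other lineages and keeps B cell precursors committed. It is transcribed from alternative promoters that lie near each other, and an enhancer in 1 of its introns is known to drive it in B lineage cells. In human B cell malignancies, a distal PAX5 enhancer next to ZCCHC7 is a known site of recurrent mutation. Zcchc7 encodes a zinc-knuckle protein whose human counterpart belongs to a nuclear RNA surveillance complex.

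The bases just before the annotated starts of both genes are shown because open regions lay at both 5′ ends in every library. In RefSeq (build GRCm38.p6, chromosome 4) Pax5 is on the minus strand and Zcchc7 on the plus strand, so they point away from each other. The lists use mm9, so these sequences were not placed inside a peak by coordinate. Capitals mark matches to 6 motifs searched on both strands of the 250 bases before each start.
Pax5: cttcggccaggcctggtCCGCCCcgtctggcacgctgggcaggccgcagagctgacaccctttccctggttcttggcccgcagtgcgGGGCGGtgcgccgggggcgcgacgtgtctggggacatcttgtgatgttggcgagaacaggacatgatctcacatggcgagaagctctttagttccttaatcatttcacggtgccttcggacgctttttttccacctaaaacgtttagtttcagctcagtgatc
Zcchc7: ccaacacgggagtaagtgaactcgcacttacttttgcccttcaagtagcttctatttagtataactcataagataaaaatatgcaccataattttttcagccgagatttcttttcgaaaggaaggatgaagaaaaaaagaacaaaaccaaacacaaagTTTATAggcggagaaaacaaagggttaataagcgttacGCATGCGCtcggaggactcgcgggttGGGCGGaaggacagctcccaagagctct
The Pax5 sequence had 2 matches to the GC box GGGCGG, which 32.7% of 32851 promoters of the same length hold. The Zcchc7 sequence had 1 match each to GGGCGG, to TATAAA (12.4% of promoters) and to GCATGCGC (2.26%), an NRF1-type element. No match overlapped another. Neither held the EBF1 palindrome of TCCC and GGGA parted by 2 bases (0.779% of promoters), the ETS-type CCGGAAG (6.91%) or CCAAT (33.8%), which says only that these letters are not in this window. The G and C content was 58.8% before Pax5 and 42.0% before Zcchc7, against a median of 52.4% over all promoters, and CpG numbered 19 and 12, against a median of 6.

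The lists held 72318 and 80242 peaks in CBE_1, 94665 and 97522 in CBE_2, and 112241 and 106056 in WT, and the read depth behind them is unknown. The window took 0.0608% and 0.0623% of the peaks in CBE_1 (Wilson 95% intervals 0.0453 to 0.0817% and 0.0473 to 0.0821%). It took 0.0465% and 0.0441% in CBE_2 (0.0346 to 0.0624% and 0.0327 to 0.0594%), and 0.0445% and 0.0481% in WT (0.0338 to 0.0587% and 0.0366 to 0.0632%). Both CBE_1 shares lay above all others, but the intervals overlap, and CBE_1 has the shortest lists. With lists cut to equal length, the mean shares were 0.0629% in CBE_1, 0.0512% in CBE_2 and 0.0456% in WT. Peaks covered 32.6 and 37.8 kb of the window in CBE_1, 32.3 and 31.2 kb in CBE_2, and 37.4 and 35.8 kb in WT. As a check of the label pro-B, approximate windows of Ebf1 and Ikzf1, genes of early B lineage factors, held 17 and 12 regions found in every library. A window over the T lineage genes Cd3e, Cd3d and Cd3g held 1 such region, with a highest fold of 22.5 and 16.2 in CBE_1, 14.7 and 14.2 in CBE_2, and 15.9 and 16.1 in WT, so an open region alone did not set B lineage genes apart.

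All 6 libraries shared 28 of the 67 regions (41.8%), against 31.9% of all regions in the series and 35.1% on the rest of chromosome 4. Another 17 were found in 1 library, with folds of 2.33 to 4.17. A fold is the authors' own value for a peak over its background, and folds serve here to describe and rank peaks within a list. To compare lists, the fold of each shared region was turned into its percentile among the 47767 regions of the genome that all 6 lists hold. The same fold ranked among all peaks of its own list, called the whole-list scale below, serves as an alternative, and the lists differ in length. Duplicates of a line differed at the 28 regions by a median of 2.99 points in CBE_1, 4.11 in CBE_2 and 2.39 in WT, and by up to 13.8, 13.4 and 11.4 points. Regions are named below by the distance of their summit, the highest point of the peak, from 44724000, the approximate 5′ end of Pax5. Negative distances run into Pax5 and positive ones toward Zcchc7, and no mm9 annotation of exons or introns was used here.

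**Figure D1:**
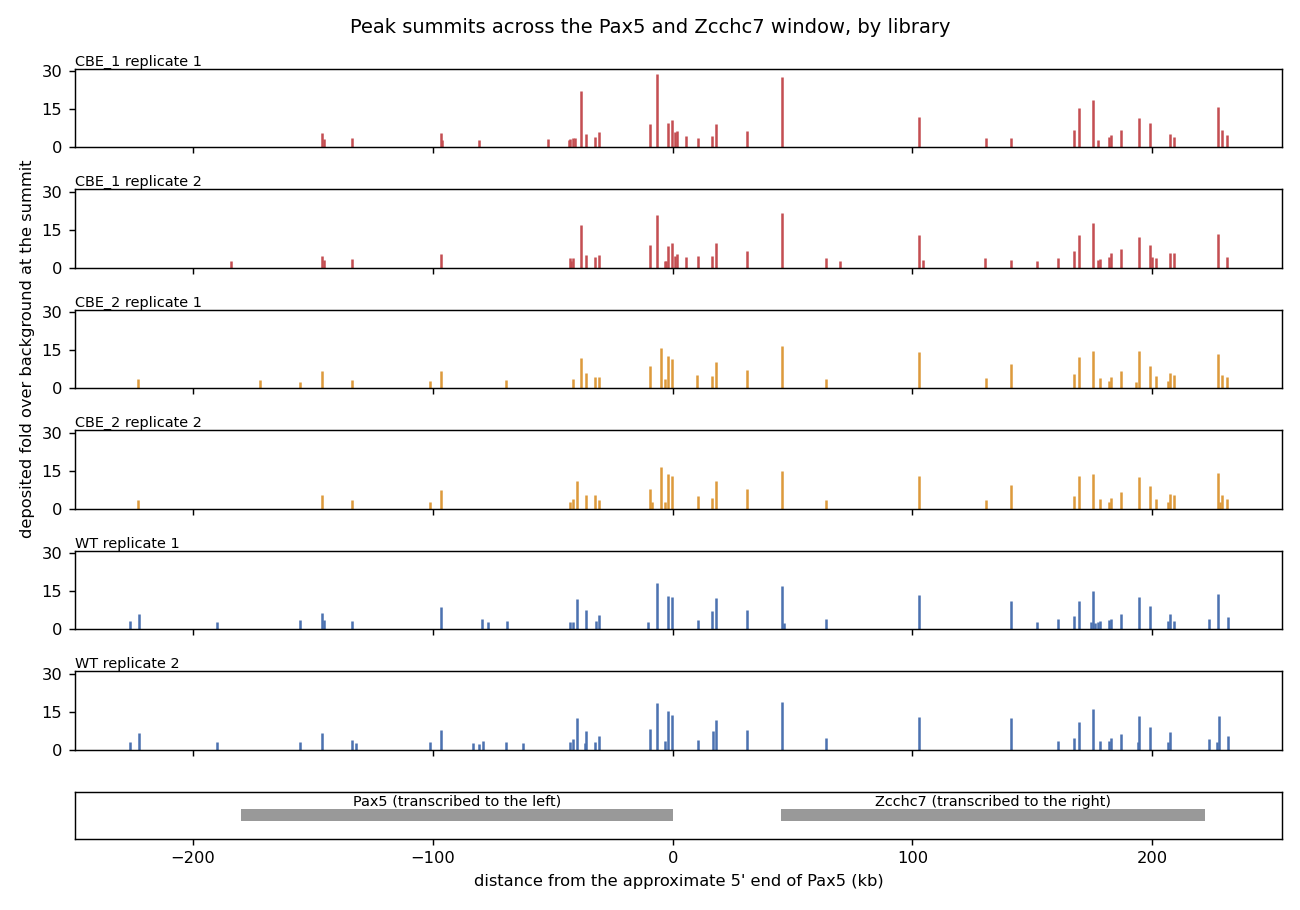
Peak summits across the window in each library, by distance from the approximate 5′ end of Pax5 in kb, with the deposited fold as height; grey bars are the approximate genes. The highest summits lie in the -6.5 kb region of Pax5 and the +45.6 kb region at the Zcchc7 end in all 6 libraries, and from -52.2 kb inward the highest fold in Pax5 is 8.76.

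The strongest Pax5 region was a broad one at -6.5 kb, inside the gene and near its 5′ end, and it was open in every line. It spans 44714266 to 44720159, a width of 5894 bp that 195 regions of the genome (0.13%) reach. Its highest fold was 29.1 and 20.6 in CBE_1, 16.1 and 16.5 in CBE_2, and 18.3 and 18.4 in WT. It stood at percentiles 94.8 and 91.8 in CBE_1, 80.6 and 85.1 in CBE_2, and 86.8 and 86.5 in WT. CBE_1 was thus highest, WT in the middle and CBE_2 lowest, with no overlap between lines. The difference from WT was 6.70 points in CBE_1 and -3.75 in CBE_2, and on the whole-list scale 1.76 and -2.75, still without overlap. The 4 mutated libraries together differed from WT by 1.47 points, with an exact two-sided permutation p of 0.933, where the smallest p that 4 against 2 libraries allow is 0.133. Without CBE_1 replicate 1 this difference was -0.671 points. That test takes duplicates of 3 lines as 6 separate libraries and pools 2 lines that lie on either side of WT, so its p measures the spread between these libraries only.

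Within this broad region the summit itself lay elsewhere in CBE_2. It was at 44717442 and 44717440 in CBE_1, 44719033 and 44719070 in CBE_2, and 44717473 and 44717435 in WT. The CBE_2 maximum therefore lay nearer to the 5′ end by over 1 kb in both libraries, while CBE_1 and WT coincided to within 50 bp. Among the 47767 shared regions, the CBE_2 summits stood at least 1 kb apart from those of both other lines, which coincided within 1 kb, in 42 (0.0879%), and in 22 of the 3306 that are 3 kb or wider (0.665%). The same arrangement with CBE_1 or WT as the line apart was found in 0.144% and 0.218% of all shared regions, and in 1.21% and 1.69% of the wide ones. The lists give 1 summit per peak, so a second maximum at the other place is not seen. The rank of CBE_2 at this region was therefore taken at another place than that of CBE_1 and WT. In WT replicate 1 a single peak of 5882 bp covered the region, and in the other 5 libraries it was split at its inner edge, with a separate peak there of fold 7.84 to 9.05.

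Closer to the 5′ end, the regions at -1.9 kb and -0.3 kb were narrower and ranked lower. At -1.9 kb (44720695 to 44722833) the percentiles were 63.2 and 60.7 in CBE_1, 69.5 and 75.1 in CBE_2, and 69.2 and 76.3 in WT, so CBE_1 lay below both other lines, which overlapped. Its summits spanned 44 bp over the 6 libraries. At -0.3 kb (44723443 to 44725369), the region nearest to the Pax5 end, the percentiles were 66.9 and 64.8 in CBE_1, 65.8 and 72.02 in CBE_2, and 68.4 and 71.2 in WT. There CBE_1 was below WT, at a difference of -3.94 points, and CBE_2 overlapped both. CBE_1 thus ranked above WT at -6.5 kb and below it at the next 2 regions.

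Upstream of the Pax5 end, CBE_1 had 3 peaks in a row whose summits lay outside every peak of the other lines. They lay at +1.0, +2.0 and +5.8 kb, with summits that the 2 CBE_1 libraries placed within 11 bp of each other. At +1.0 kb the summits were at 44725015 and 44725024, with folds of 5.88 and 4.80. At +2.0 kb they were at 44725993 and 44725982, with folds of 6.33 and 5.21. At +5.8 kb they were at 44729752 and 44729753, with folds of 4.52 and 4.38. No peak of CBE_2 or WT covered any of these summits. At +1.0 kb the edge of the CBE_1 replicate 1 peak (44724410 to 44725295) overlapped a WT replicate 2 peak that ended at 44724575. The +1.0 kb peak is merged into the -0.3 kb region, and the other 2 (44725722 to 44726812 and 44729584 to 44730152) are the window's regions found in both CBE_1 libraries and in no other, a pattern of 0.667% of all regions. Counted by summits repeated within 150 bp in both libraries of a line and covered by no peak of another line, CBE_1 had 3 of 34 in the window, CBE_2 0 of 35 and WT 5 of 38. The same counts over the genome were 1.97% in CBE_1, 6.46% in CBE_2 and 15.6% in WT. Of the WT summits, 2 lay on the 3′ flank of Pax5, 2 in its body and 1 beyond Zcchc7, and none lay between the genes.

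**Figure D2:**
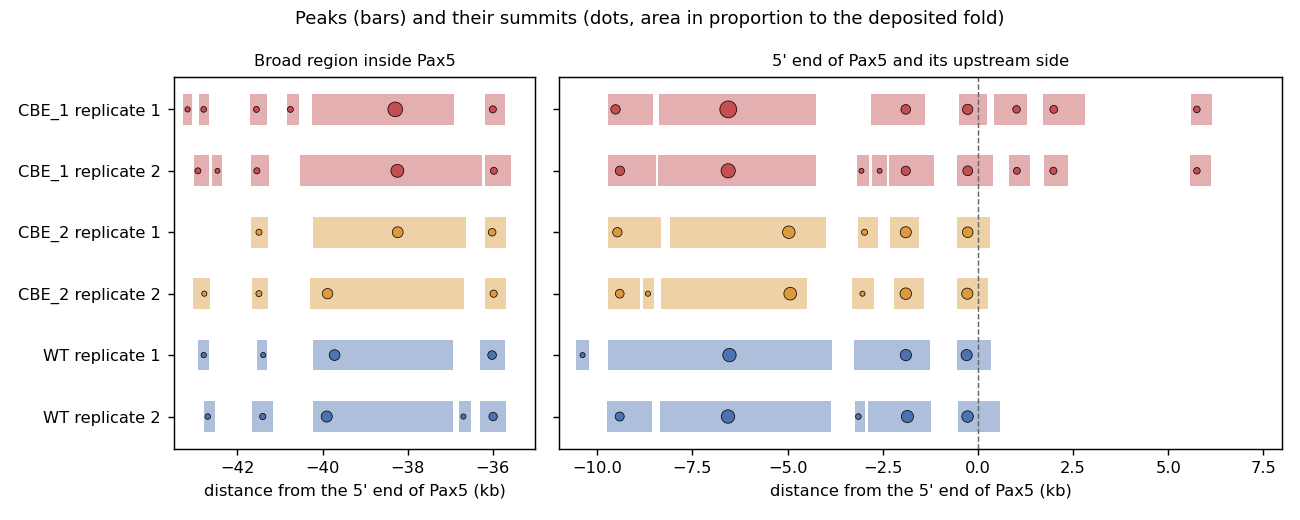
Peaks (bars) and summits (dots, area in proportion to the deposited fold) of each library in the broad region inside Pax5 (left) and around the Pax5 5′ end (right), by distance from that end in kb. The summit of the broad region near the end lies nearer to it in both CBE_2 libraries than in the other 4. The CBE_1 summits at +1.0, +2.0 and +5.8 kb are covered by no peak of CBE_2 or WT.

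Deeper in the gene, the region at -39.0 kb was the second widest of the window and stood out in CBE_1. It spans 44683476 to 44688427 (4952 bp, a width reached by 0.308% of all regions). Its highest fold was 22.02 and 17.0 in CBE_1, 12.0 and 11.1 in CBE_2, and 11.8 and 12.5 in WT. The percentiles were 85.7 and 83.5 in CBE_1, 67.5 and 65.6 in CBE_2, and 64.9 and 67.4 in WT. CBE_1 was higher than both other lines by more than the spread of any duplicate pair there, while CBE_2 and WT overlapped. The CBE_1 minus WT difference was 18.4 points, against 5.61 on the whole-list scale, where CBE_2 lay below WT by a difference of -1.92. The summits were at 44685708 and 44685758 in CBE_1, 44685766 and 44684117 in CBE_2, and 44684282 and 44684098 in WT, so the CBE_2 duplicates fell on different maxima. CBE_1 and WT did so too, and their rank difference compares different places within the region. A separate peak at its end nearest to the promoter, with summits from 44687984 to 44688026, had folds of 5.13 and 5.003 in CBE_1, 5.89 and 5.37 in CBE_2, and 7.68 and 7.25 in WT. At that edge CBE_1 had the lowest folds and WT the highest, the reverse of the main peak, although folds of different lists are not on 1 scale.

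Between this region and the promoter side lay 2 weaker regions whose lines differed in other ways. At -32.2 kb (44691596 to 44692087) the percentiles were 20.8 and 26.6 in CBE_1, 16.1 and 29.5 in CBE_2, and 3.75 and 1.39 in WT. Both mutated lines were higher there, by 20.7 points on average, and 5% of shared regions rise at least as far. At -30.7 kb (44692907 to 44693759) they were 47.5 and 33.7 in CBE_1, 16.1 and 4.42 in CBE_2, and 27.4 and 25.5 in WT. CBE_1 lay above WT and CBE_2 below it at that place, but on the whole-list scale CBE_1 overlapped WT (-2.20 points).

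The rest of the Pax5 body held few shared regions. The regions at -146.3, -133.7, -96.6 and -41.5 kb had folds of 2.71 to 8.76. At -96.6 kb (44626871 to 44628147) the percentiles were 43.9 and 38.4 in CBE_1, 42.6 and 48.5 in CBE_2, and 52.0 and 47.4 in WT, with CBE_1 below WT. In all, the Pax5 stretch (44544000 to 44724000) held 26 regions, 10 of them in every library, and its peaks covered 16.9 and 18.1 kb in CBE_1, 15.9 and 15.3 kb in CBE_2, and 18.4 and 18.7 kb in WT. On its 3′ flank, toward Melk, no region was shared by all libraries. The strongest one there (44501122 to 44501538) had no peak in either CBE_1 library, folds of 3.43 and 3.33 in CBE_2, and folds of 5.95 and 6.70 in WT.

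The stretch between the genes held 4 shared regions, of which 3 ranked differently in both mutated lines and in WT on the main scale and 2 of these on the whole-list scale. On the main scale 1 was above WT and 2 below it, against 20.3% and 20.1% of shared regions over the genome. With so few regions these counts cannot be read as particular to the stretch. At +16.6 kb (44740352 to 44740992) the percentiles were 25.8 and 30.96 in CBE_1, 20.4 and 15.1 in CBE_2, and 42.8 and 43.8 in WT. The difference from WT was -14.9 points in CBE_1 and -25.6 points in CBE_2. Its stronger neighbour at +18.0 kb (44741515 to 44742584) stood at 62.7 and 63.8 in CBE_1, 61.7 and 64.3 in CBE_2, and 67.3 and 65.1 in WT, a mutated minus WT difference of -3.04 points. At +10.4 kb (44734241 to 44734610) the direction was the opposite, with 18.2 and 28.1 in CBE_1, 24.8 and 27.1 in CBE_2, and 8.55 and 7.52 in WT. On the whole-list scale CBE_1 overlapped WT at +10.4 kb (2.36 points), and CBE_2 stayed above it (14.9 points). At +30.9 kb (44754501 to 44755282) the percentiles were 48.5 and 49.3 in CBE_1, 45.4 and 49.9 in CBE_2, and 45.1 and 46.7 in WT, and CBE_1 was clear of WT by 3.08 points while CBE_2 overlapped it. On the whole-list scale both mutated lines lay below WT there, CBE_1 at -8.39 points and CBE_2 at -2.27.

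The Zcchc7 end carried the second strongest region of the window, at +45.6 kb, and its lines stood in the same order as at -6.5 kb. It spans 44768485 to 44770248, next to the approximate gene start at 44769000. Its fold was 27.6 and 21.6 in CBE_1, 16.7 and 14.8 in CBE_2, and 17.0 and 18.9 in WT. The percentiles were 93.1 and 93.6 in CBE_1, 82.4 and 79.4 in CBE_2, and 82.8 and 88.0 in WT, with no overlap between lines, though CBE_2 and WT came within 1 point. The difference from WT was 7.98 points in CBE_1 and -4.45 in CBE_2, and on the whole-list scale 2.25 and -3.21. Its width was 1636 to 1722 bp and its summits spanned 68 bp, so in contrast to the broad Pax5 region neither its extent nor its summit moved. The mutated libraries differed from WT by 1.76 points (exact two-sided permutation p = 0.8), and the difference was -0.836 points when WT replicate 1 was left out, and -0.193 or -0.372 when CBE_1 replicate 1 or 2 was. By mean absolute difference of percentile over the 6 libraries, the 2 leading regions were most like each other, at 2.75 points, followed for each by the regions at +175.2 kb (8.82 points from the Pax5 region and 7.75 from the Zcchc7 region) and +227.6 kb (14.0 and 12.9). This order is also that of their median percentiles (86.6, 85.4, 77.8 and 73.5), the highest in the window. Each lead was chosen for its high median, so this closeness does not show a shared pattern of the lines.

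Inside Zcchc7, the region at +141.0 kb showed the largest loss of rank in the window. It spans 44864730 to 44865261. Its fold was 3.77 and 3.02 in CBE_1, 9.56 and 9.45 in CBE_2, and 11.1 and 12.6 in WT, and its peak was 200 bp wide in both CBE_1 libraries, 475 and 507 bp in CBE_2, and 532 and 510 bp in WT. The percentiles were 18.2 and 5.10 in CBE_1, 58.2 and 59.0 in CBE_2, and 62.5 and 67.7 in WT. CBE_1 stood low among the shared regions, at a difference of -53.5 points from WT that 0.492% of shared regions reach. CBE_2 was also below WT, at a difference of -6.54 points.

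Farther on, toward the 3′ end of Zcchc7, CBE_1 ranked above WT at +167.5, +169.3, +182.0 and +186.9 kb on the main scale. Its difference from WT was smaller at each on the whole-list scale, where it overlapped WT at +186.9 kb alone among these. Elsewhere in that part, at +175.2 and +199.2 kb, the difference changed sign between the scales. At +167.5 kb (44891255 to 44891720) the percentiles were 51.7 and 49.3 in CBE_1, 32.7 and 27.1 in CBE_2, and 22.8 and 18.3 in WT. The difference from WT was 30.0 points in CBE_1 and 9.38 in CBE_2. On the whole-list scale it was 9.53 points in CBE_1, and CBE_2 overlapped WT. Its stronger neighbour at +169.3 kb (44892925 to 44893716) stood at 75.8 and 73.5 in CBE_1, 68.3 and 72.8 in CBE_2, and 62.5 and 62.3 in WT. At +186.9 kb (44910460 to 44911218) the percentiles were 52.6 and 54.6 in CBE_1, 41.6 and 41.2 in CBE_2, and 30.8 and 36.3 in WT. In these 3 regions all 4 mutated libraries were above both WT libraries and CBE_1 was above CBE_2 on the main scale. On the whole-list scale all 4 stayed above WT at +169.3 kb, by 1.52 points, and overlapped it at +167.5 and +186.9 kb, and CBE_1 stayed above CBE_2 at +167.5 kb alone among the 3. At +182.0 kb (44905738 to 44906136) the lines split, with 23.4 in both CBE_1 libraries, 0.729 and 1.36 in CBE_2, and 6.44 and 5.45 in WT, and they did so on the whole-list scale too.

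Other strong Zcchc7 regions differed by a few points between lines. At +175.2 kb (44898927 to 44899516) the percentiles were 80.6 and 84.8 in CBE_1, 76.8 and 75.1 in CBE_2, and 76.6 and 78.8 in WT. At +102.9 kb (44826593 to 44827209) they were 69.2 and 73.7 in CBE_1, 75.2 and 72.8 in CBE_2, and 70.3 and 69.3 in WT, with summits within 17 bp in all 6 libraries. This region adjoins the longest gap of the window, 32.8 kb with no peak in any list. Beyond the gene, the third widest region, at +227.6 kb (44950549 to 44953805), stood at 76.5 and 74.5 in CBE_1, 72.03 and 76.7 in CBE_2, and 72.6 and 69.6 in WT. Its neighbour at +231.4 kb (44954962 to 44955833) stood at 34.4 and 25.0 in CBE_1, 19.0 and 10.1 in CBE_2, and 21.6 and 26.6 in WT.

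**Figure D3:**
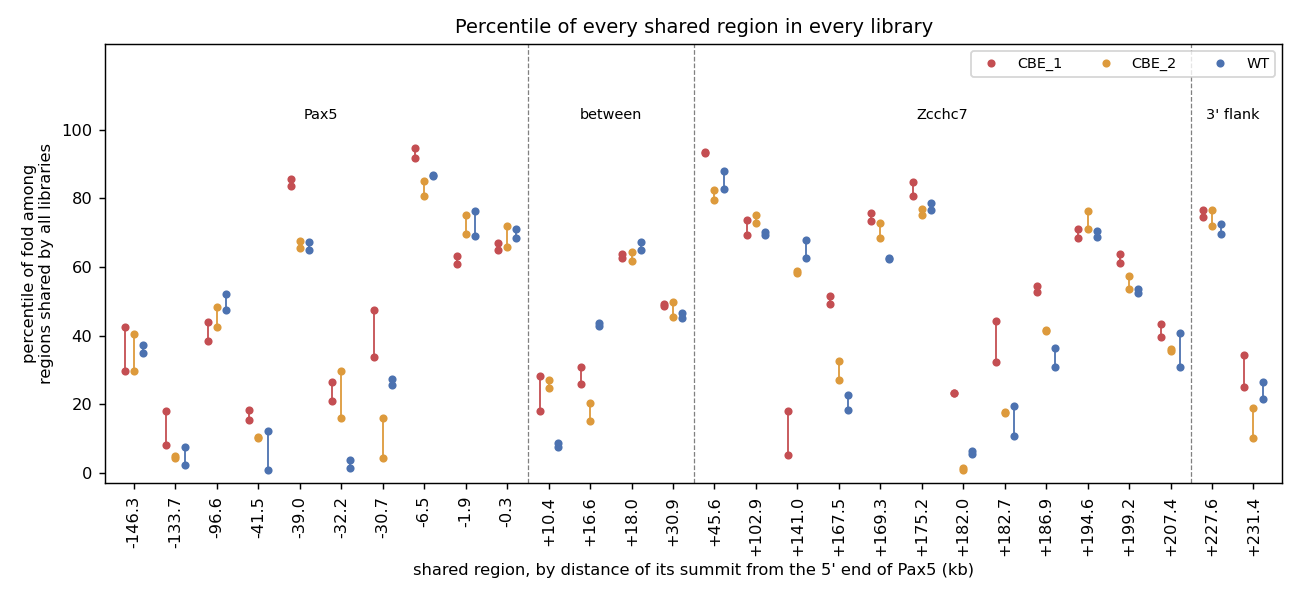
Percentile of the deposited fold among regions shared by all libraries, for the 28 shared regions of the window in order along the chromosome; each dot is 1 library and lines join duplicates. CBE_1 dots lie highest at -39.0, -6.5 and +45.6 kb and drop to 18.2 and 5.10 at +141.0 kb.

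Presence and absence separated the lines at few regions. Found in all 4 mutated libraries and in neither WT library was 1 region, at +130.5 kb in Zcchc7 (44854108 to 44854816), against 1.52% of all regions. Its folds were 3.47 and 3.86 in CBE_1 and 3.92 and 3.44 in CBE_2. Found in both WT libraries and nowhere else were 4 regions, against 8.68% of all regions, at -226.2, -190.0, -79.3 and +223.8 kb, with folds of 2.71 to 4.39. Missing from both CBE_1 libraries and present in the other 4 were 2 regions, against 5.05% of all regions, the one on the 3′ flank of Pax5 and one at +206.4 kb (44930244 to 44930618) with folds of 2.82 and 2.79 in CBE_2 and 3.03 and 2.86 in WT. No region was found in CBE_2 alone or missing from CBE_2 alone, against 3.14% and 0.653%. Leaving out a library makes each pattern ask for fewer libraries, so some of the following rises come from the looser rule. WT-only regions were 8 without WT replicate 1 and 9 without WT replicate 2. CBE_1-only regions numbered 7 when CBE_1 replicate 1 was left out, 5 when its duplicate was, and 4 when WT replicate 1 was. The strongest regions of the Pax5 and Zcchc7 ends were chosen among shared regions, so they could not follow any of these patterns.

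Over the 28 shared regions, ranked among shared regions, CBE_1 was more often above WT than below it, and CBE_2 equally often. Both CBE_1 libraries were above both WT libraries in 17 regions (60.7%, against 36.9% of the shared regions of the genome) and below them in 6 (21.4% against 33.6%), with a median difference of 6.23 points against 0.390 over the genome. Both CBE_2 libraries were above WT in 8 (28.6% against 33.2%) and below it in 8 (28.6% against 33.2%). CBE_1 was above CBE_2 in 16 (57.1% against 34.1%) and below it in 3 (10.7% against 31.5%). At Ebf1, CBE_1 was above WT in 14 of 17 shared regions (82.35%) and below it in 0, and above CBE_2 in 13 (76.47%). At Ikzf1 it was above WT in 3 of 12 (25.0%), below WT in 3, and above CBE_2 in 0. The larger share at Ebf1 means that the CBE_1 counts are not particular to this window. These comparisons share libraries, and no test of the counts was made. All 4 mutated libraries were above both WT libraries in 6 regions (21.4% against 20.3%), a share near that of the genome, and below them in 3 (10.7% against 20.1%). CBE_1 above and CBE_2 below WT was found at 4 regions (background 5.08%) and the reverse at 0 (background 4.75%).

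These directions rest on ranking every library over the same regions. Ranked among all peaks of its own list, where the lists differ in length, CBE_1 was above WT in 7 of the 28 regions and below it in 14, CBE_2 was above WT in 4 and below it in 15, and CBE_1 was above CBE_2 in 7 and below it in 12. All 4 mutated libraries were then above WT in 2 regions and below it in 9. The shares over the genome on that scale were not computed, so these counts cannot be read as particular to the window. Where CBE_1 was above WT on the main scale, their whole-list difference changed sign at -30.7 kb (-2.20 points), +30.9 kb (-8.39), +175.2 kb (-1.16), +199.2 kb (-2.58) and +227.6 kb (-2.64). Where CBE_1 was above CBE_2, it did so at -41.5 kb (-2.50 points), +16.6 kb (-0.540), +169.3 kb (-1.09), +199.2 kb (-1.09) and +207.4 kb (-4.28). Some regions where these lines overlapped on the main scale changed sign too. On the main scale, leaving out WT replicate 2 raised the regions above WT in all mutated libraries to 12 and those above WT in CBE_2 to 15. Leaving out WT replicate 1 raised those below WT in CBE_2 to 14, and leaving out CBE_2 replicate 1 raised those below CBE_2 in CBE_1 to 9. With fewer libraries the lines overlap less easily, and genome shares under this looser rule were not computed.

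**Figure D4:**
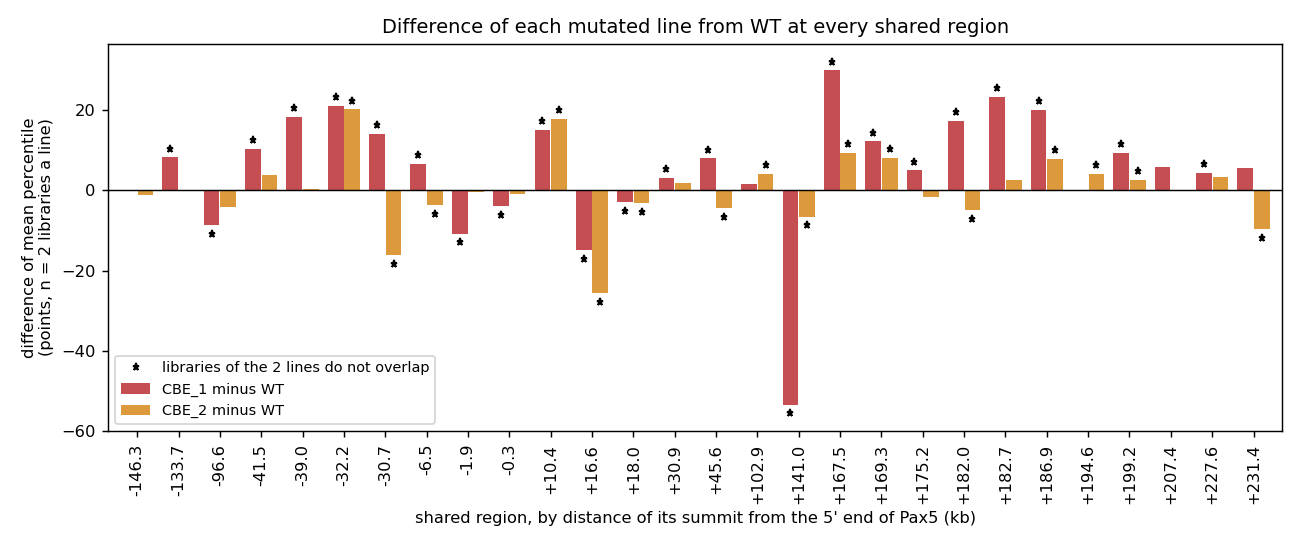
Difference of mean percentile, CBE_1 minus WT and CBE_2 minus WT, at the 28 shared regions in order along the chromosome (n = 2 libraries a line); stars mark differences where the libraries of both lines do not overlap. Stars above 0 number 17 for CBE_1 and 8 for CBE_2.

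By stretch, CBE_1 was above WT in 6 and below it in 3 of the 10 shared Pax5 regions, and above it in 8 and below it in 1 of the 12 Zcchc7 regions, against 36.9% above and 33.6% below over the genome. On the whole-list scale these counts were 3 and 4 in Pax5, and 4 and 5 in Zcchc7. CBE_2 was above WT in 1 and below it in 2 of the Pax5 regions, and above it in 6 and below it in 3 of the Zcchc7 regions, against 33.2% each way over the genome. On the whole-list scale these counts were 1 and 6 in Pax5, and 2 and 5 in Zcchc7. Genome shares on the whole-list scale were not computed, so its counts cannot be read as particular to either gene. The strongest shared region had a median percentile of 86.6 in the Pax5 window, 86.3 at Ebf1 and 73.4 at Ikzf1, which encodes Ikaros. Regions numbered 13.7 per 100 kb in the Pax5 window, 15.01 at Ebf1 and 31.5 at Ikzf1. The differences between these loci were not tested.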

How the data were processed

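Single-read ATAC-seq libraries were each deposited by the authors as a separate peak list. The submitters' processing notes list Trimmomatic, Bowtie2, SAMtools, Picard and build mm9, with no versions or order. Which caller was used, and whether reads were shifted for the transposase, is not given in the sources used here. Each deposited peak has a score, a fold over background (a ratio), −log10 p- and q-values and a summit. In the deposited lists the score was 10 times the −log10 q-value cut to a whole number. They were used within a list to describe, rank or filter peaks.

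Peaks were merged at 1 bp overlap, and shared regions ranked by their highest fold, in Python 3.11.15 with pandas 2.3.3, numpy 2.4.6 and SciPy 1.17.1. Gene windows were set from general knowledge of mm9, and their borders are approximate. Region patterns and rank calls were tested on simulated lists. Regions are not independent, and Wilson intervals cover counting error only. Whether the libraries of 2 lines overlap is reported without a test, and an exact permutation test was made for the lead region of each gene alone.

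Regions described are the 3 strongest shared ones of each stretch, those where all 4 mutated libraries differ from WT by at least 10 points, those where the mutated lines lie on either side of WT, those with a line-specific pattern, and the 3 widest. Other regions were named after their values were seen. The members and lists were chosen with earlier results of these data known. The counts of line-specific summits and of displaced summits were added after seeing the data.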

Additional observations from a re-analysis of the deposited data

Results flagged for a closer look

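At 4 shared regions both CBE_1 libraries ranked above both WT libraries and both CBE_2 libraries below them, so the mutated lines moved in opposite directions from WT. The opposite arrangement was found at none of the 28 regions. The difference between the lines was not tested, and 5.08% and 4.75% of shared regions over the genome show these patterns.

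The broad Pax5 region at -6.5 kb differed from WT by 6.70 points in CBE_1 and by -3.75 in CBE_2. The region at the Zcchc7 end, at +45.6 kb, differed by 7.98 and -4.45 points in CBE_1 and CBE_2. The region at -30.7 kb in Pax5 differed by 14.1 and -16.2 points, and the one at +182.0 kb in Zcchc7 by 17.4 and -4.90 points. The first pair are the strongest regions of the window. At +45.6 kb the nearest CBE_2 and WT libraries stood at 82.4 and 82.8, within 1 point of each other. With percentiles among all peaks of a list, CBE_1 overlapped WT at -30.7 kb, and the other 3 regions kept both directions.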

How the results depend on the processing

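Read depth is unknown, so a missing peak does not show closed chromatin. No paired analysis was possible because the labels give no numbers that pair libraries across lines. Ranking by −log10 p kept every call at the 28 shared regions. It gave the same mutated minus WT differences at the lead regions as fold did (1.47 and 1.76 points), so it is no separate check. Merging within 150 bp also kept every call, though that left 1 region absent from CBE_1.

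With the better 50% of each list, 18 regions were shared, 1 was WT-only, 0 mutated-only, 1 CBE_1-only, 1 absent from CBE_1 and 1 absent from CBE_2. All mutated libraries were then above WT in 3 and below it in 1. The window held 0.0733% of peaks in CBE_1, 0.0552% in CBE_2 and 0.0478% in WT. With lists of equal length, 2 regions were WT-only, 3 mutated-only, 4 CBE_1-only, 1 absent from CBE_1 and 1 absent from CBE_2. The shares were then 0.0629% in CBE_1, 0.0512% in CBE_2 and 0.0456% in WT.

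With percentiles among all peaks of a list, all mutated libraries were above WT in 2 regions and below it in 9, with no genome share computed on that scale. The mutated minus WT difference was then -0.496 points at -6.5 kb, -0.481 at +45.6 kb and -2.04 at +199.2 kb. CBE_1 minus WT was -2.20 at -30.7 kb, -8.39 at +30.9 kb, -1.16 at +175.2 kb, -2.58 at +199.2 kb and -2.64 at +227.6 kb. CBE_2 minus WT was -1.50 at +199.2 kb. CBE_1 minus CBE_2 was -2.50 at -41.5 kb, -0.540 at +16.6 kb, -1.09 at +169.3 kb, -1.09 at +199.2 kb and -4.28 at +207.4 kb. Each is positive in the main ranking. The lists differ in length by construction, and the cause was not tested further.

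Leaving out 1 library at a time gave 28 to 30 shared regions, 4 to 9 WT-only, 1 to 2 mutated-only, 2 to 7 CBE_1-only, 0 to 2 CBE_2-only, 2 to 4 absent from CBE_1 and 0 to 2 absent from CBE_2. Regions above WT in all mutated libraries numbered 6 to 12 and those below it 3 to 5. Each of these rules asks for fewer libraries once 1 is left out, so the counts tend to rise and do not measure stability. The mutated minus WT difference ranged over -0.671 to 3.90 points at -6.5 kb and -0.836 to 4.29 points at +45.6 kb, where it was also -0.193 and -0.372 without CBE_1 replicates 1 and 2.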
